A study of Mus musculus with 2 samples.

Results

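The phagocyte NADPH oxidase was examined through 7 genes in 2 populations of macrophages sorted from hearts of wild-type male C57BL/6 mice, 10 weeks old, after ischemia–reperfusion (IR), in which a coronary artery is closed for a time and then reopened. MHCII+ macrophages and MerTK- macrophages were both taken from a CD45+CD11b+ gate, which admits other leukocytes that carry CD11b as well as macrophages, and no further allele or agent was given to either group. Each population was measured on 1 array, cells of several hearts having been pooled for a sample, so that a spread between replicates is lacking and neither a test nor a p-value is given. The members were taken as the probe sets whose only gene symbol in the platform table is Cybb, Cyba, Ncf1, Ncf4, Rac1, Rac2 or Hvcn1. Each of the 7 had a single probe set, out of 19505 genes in all.

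The oxidase transfers electrons from NADPH in the cytosol to oxygen inside the phagosome or outside the cell and so makes superoxide, the first product of the respiratory burst by which phagocytes kill microbes. In resting cells its parts are kept separate. A flavocytochrome lies in the membrane, while other subunits wait in the cytosol until phosphorylation and a Rac GTPase bring them to it, and a voltage-gated proton channel balances the charge that leaves. Neutrophils, monocytes, macrophages, eosinophils and B cells carry the complex, and superoxide from leukocytes that enter the reperfused heart is a long-known part of reperfusion injury.

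Values are log2 RMA intensities as the authors deposited them, and a difference is the log2 value in MHCII+ minus that in MerTK- macrophages. The level of unused genes was taken from 1452 probe sets of sensory receptors (olfactory, vomeronasal, taste), whose 95th percentile served as each array's floor. It lay at 4.23 on the MHCII+ and 4.67 on the MerTK- array. A gene counted as above the floor if its higher value passed the one of its array, as for 10521 genes. A lower value under the floor was replaced by the floor, and the fold is then given as "at least".

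H2-Aa, a chain of the class II molecule, measured 16.7 in MHCII+ and 8.39 in MerTK- macrophages, and Mertk, the receptor for dying cells after which the MerTK- population is named, had 8.77 and 5.97. Mertk was thus 6.99-fold lower in MerTK- macrophages but still above the floor there. The paper counts MHCII+ macrophages among its MerTK+ clusters, but the sources do not state that the sorted MHCII+ cells were also gated on MerTK. Of 6 pan-macrophage markers measured, all were above the floor and less than 2-fold apart, with differences from 0.01 (Lyz2, a lysozyme) to 0.98 (Itgam, the CD11b chain of the gate). The median difference over genes above the floor was 0.15. The 4 hybridization controls, foreign transcripts added to every array, had differences from -1.14 to -0.75. The direction of a small difference therefore depends on how the arrays are scaled against each other, and each direction given below for a member is checked under the other scalings.

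Apart from Hvcn1, the oxidase genes were bright in both populations and, on the deposited scale, less than 2-fold apart. The membrane subunits Cybb and Cyba were somewhat higher in MHCII+ macrophages, and the cytosolic subunits Ncf1 and Ncf4 and the GTPases Rac1 and Rac2 were somewhat higher in MerTK- macrophages, on the deposited scale. The median difference over the 7 members was -0.28. With lower values under the floor set to it, 1 member (Hvcn1) passed 2-fold towards MHCII+ macrophages, where 11.8% of all genes above the floor did, and 0 passed it towards MerTK- macrophages, where 6.00% did (17.8% either way). Centring the arrays on the genes above the floor brings the split over all genes from 1243 and 631 to 919 and 890, on housekeeping genes to 495 and 1801, and on the hybridization controls to 5207 and 62. The members past 2-fold are then 0 and 2 (Ncf4 and Rac2) under each of the first pair of centrings, and 3 (Cybb, Cyba and Hvcn1) and 0 under the last, so the member calls also depend on the scaling. At 1.5-fold, 3 of the 7 members passed (Hvcn1, Ncf4 and Rac2), against 40.1% of all genes, so both shares lay near the background on the deposited scale. The 6 other members all had a mean value of at least 14, and of the 513 genes that bright, 18.5% were at least 2-fold apart.

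**Figure D1:**
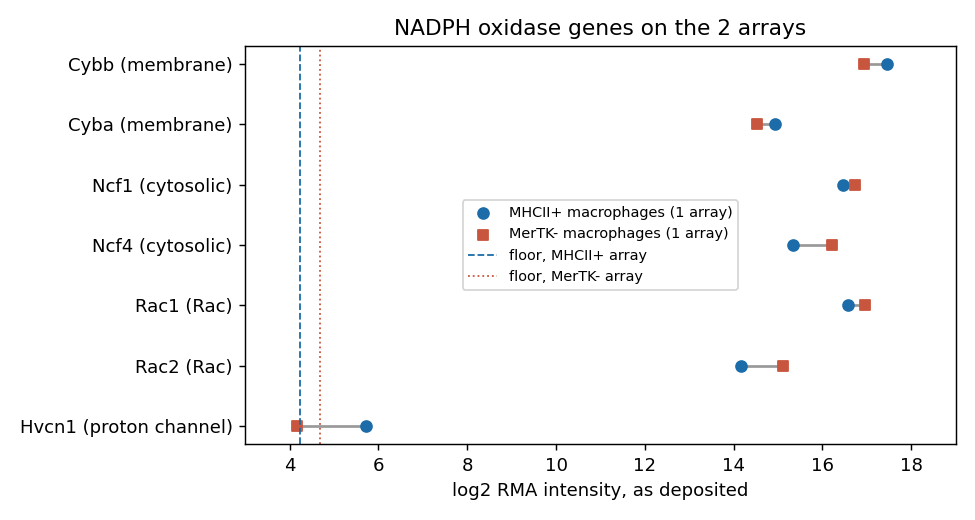
Deposited log2 RMA intensity (horizontal axis) of the 7 oxidase genes in MHCII+ (circles) and MerTK- macrophages (squares), 1 array each, with the floor of each array as a dashed and a dotted line. All genes but Hvcn1 lie far to the right of both floors, and the MerTK- value of Hvcn1 lies below its floor of 4.67.

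Cybb encodes the catalytic heme-bearing subunit of the flavocytochrome, and its loss causes the X-linked form of chronic granulomatous disease in humans. It measured 17.46 in the MHCII+ and 16.95 in the MerTK- population, a difference of 0.51 or 1.42-fold. Cyba, the partner chain that stabilizes it in the membrane, had values of 14.92 and 14.53, a difference of 0.40 or 1.32-fold. Both membrane subunits thus leaned the same way by nearly the same amount, the ratio of Cybb to Cyba being 1.08-fold higher in MHCII+ macrophages. The lean was small against all genes, with Cybb at percentile 69.1 and Cyba at percentile 63.6 of the differences above the floor. After centring on housekeeping genes it vanished, at 0.06 for Cybb and -0.05 for Cyba.

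The deposited values hold no promoter sequence. The bases before the start of transcription were therefore read from RefSeq (GRCm38.p6), in which 3 of the 7 members matched, namely Cybb, Cyba and Ncf1. They are shown because interferon regulatory factors and PU.1 (Spi1), whose transcripts were measured on the same arrays, are known to act on the human homologue of Cybb. Each run holds the 250 bases before the start, 5′ to 3′ on the strand of the gene, which is the minus strand for all of them. Capitals mark GAAA followed, after any 2 bases, by GAAA again, on either strand, as in interferon-stimulated response elements.
Cybb, chrX:9469325-9469574: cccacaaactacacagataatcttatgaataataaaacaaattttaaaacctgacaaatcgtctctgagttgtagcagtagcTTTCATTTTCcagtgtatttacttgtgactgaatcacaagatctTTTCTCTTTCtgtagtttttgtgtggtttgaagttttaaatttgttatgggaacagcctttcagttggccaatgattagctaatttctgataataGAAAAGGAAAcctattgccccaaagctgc
Cyba, chr8:122432941-122433190: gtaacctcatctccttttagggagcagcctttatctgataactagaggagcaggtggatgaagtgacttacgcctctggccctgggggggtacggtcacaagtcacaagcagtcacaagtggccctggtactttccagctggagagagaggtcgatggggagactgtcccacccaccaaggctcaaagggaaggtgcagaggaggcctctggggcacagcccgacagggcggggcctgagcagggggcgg
Ncf1, chr5:134229626-134229875: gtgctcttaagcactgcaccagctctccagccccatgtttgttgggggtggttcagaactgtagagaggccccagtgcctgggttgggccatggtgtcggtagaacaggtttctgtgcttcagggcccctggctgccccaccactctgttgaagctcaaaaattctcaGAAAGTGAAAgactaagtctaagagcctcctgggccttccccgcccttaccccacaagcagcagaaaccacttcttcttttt

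The run of Cybb holds this repeat at 3 places, counted from the start as -168 to -159, -124 to -115 and -29 to -20, and the run of Ncf1 holds it at -82 to -73. The run of Cyba has no match. The repeat is present in 2.98% of the 32851 promoter windows of the same length. GAGGAA, a core bound by PU.1, was searched on both strands of the whole window of 300 bases, which also takes in the 50 bases after the start. It was matched only in Cybb, from base 10 to base 15 after the start, and 28.3% of all windows hold it. These are matches of letters, not sites. The transcripts of the factors themselves were measured as well. Spi1 had values of 18.7 and 18.9 and Irf8 values of 9.62 and 9.30, while Irf1 was 2.62-fold higher in MerTK- macrophages (14.1 and 15.5).

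Ncf1 encodes p47phox, the organizer that is phosphorylated when the cell is triggered and then docks on Cyba. It measured 16.46 in the MHCII+ and 16.74 in the MerTK- population, a difference of -0.28 or 1.22-fold in favour of MerTK- cells. Ncf4 encodes p40phox, which binds a phosphoinositide of the phagosome membrane and sustains the oxidase there. Its values were 15.33 and 16.21, a difference of -0.88 or 1.84-fold. On the deposited scale Ncf4 thus came close to the 2-fold threshold, while Ncf1 did not. Only 8.98% of genes above the floor had a lower difference than Ncf4, against 27.6% for Ncf1.

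Rac1 is made in nearly all cells and Rac2 in blood cells, and in their GTP-bound form both take part in starting electron transfer. Rac1 had values of 16.59 and 16.96, a difference of -0.37 or 1.29-fold in favour of MerTK- macrophages. Rac2 had values of 14.17 and 15.12, a difference of -0.96 or 1.94-fold, the lowest of the 7 members, at percentile 7.52 of all genes. On the deposited scale the haematopoietic GTPase thus differed more than the general one, by 0.59 in log2, as did Ncf4 against Ncf1, by 0.60. Whether the probe sets of the closely related Rac genes take up each other's RNA was not tested. The lean of Ncf1, Ncf4 and Rac1 towards MerTK- macrophages held as deposited and after quantile normalization or centring on genes above the floor or housekeeping genes. It turned after centring on the hybridization controls, to 0.65, 0.06 and 0.57, where Rac2 was at -0.02. On that scaling Rac2 differed less than Rac1 and Ncf4 less than Ncf1, so which gene of a pair differs more also depends on the scaling.

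**Figure D2:**
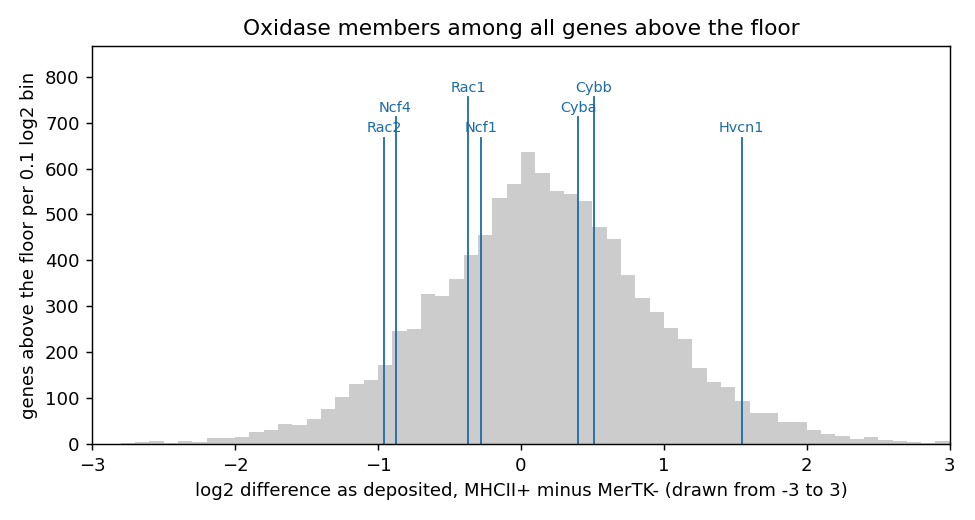
Number of genes above the floor (vertical axis) by deposited log2 difference, MHCII+ minus MerTK- (horizontal axis), with the 7 oxidase genes as vertical lines. Cybb and Cyba lie right of zero, Ncf1 and Rac1 left of it, Ncf4 and Rac2 in the left shoulder at -0.88 and -0.96, and Hvcn1 furthest right at 1.54.

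The ratio of 2 genes on the same array does not change when an array is moved up or down as a whole, so the members were also compared with each other. The grouping follows where the proteins sit in the resting cell and was made with the values known. The membrane pair had a mean difference of 0.45, the cytosolic pair -0.58 and the Rac pair -0.66. The membrane pair was therefore higher against the cytosolic pair in MHCII+ than in MerTK- macrophages by 1.03 on the log2 scale, or 2.05-fold, and against the Rac pair by 1.12, or 2.17-fold. The cytosolic and Rac pairs differed from each other by 0.08. Of the single ratios between a membrane and a cytosolic or Rac gene, the lowest was that of Cyba to Ncf1, 0.68 on the log2 scale, and the highest that of Cybb to Rac2, 1.47 or 2.76-fold. All 8 of these ratios were higher in MHCII+ macrophages. This follows from the signs of the member differences and adds nothing to them. Among the 513 genes with a mean value of at least 14, the 10th and 90th percentiles of the difference were -1.01 and 0.96. All 6 bright members lay within that range. The ratios show unequal change and not which gene changed, and with 1 array per population no error can be attached to them.

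**Figure D3:**
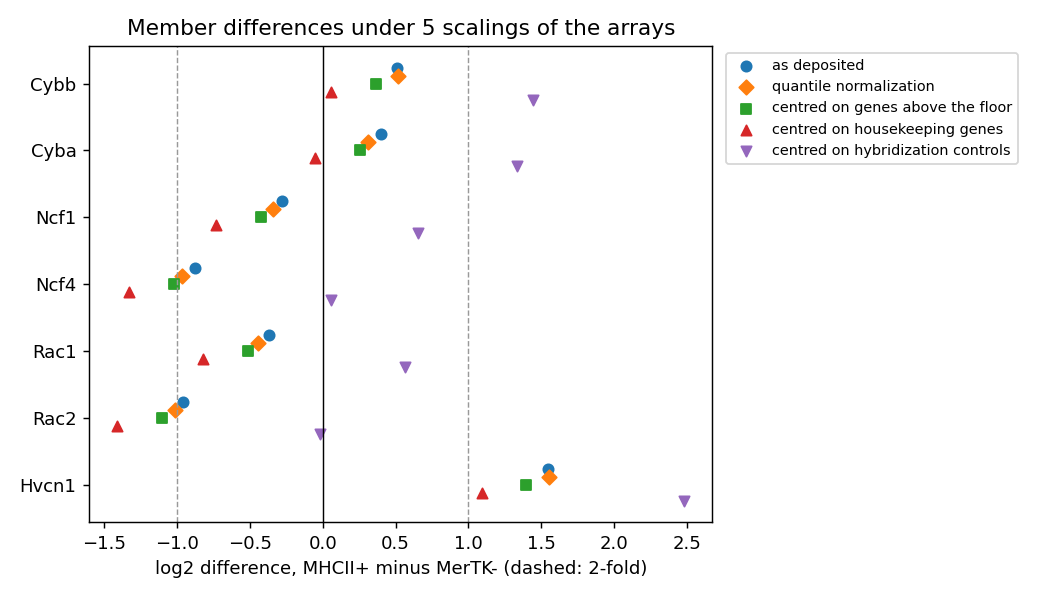
Log2 difference, MHCII+ minus MerTK- (horizontal axis), of each oxidase gene as deposited and under each other scaling of the arrays (symbols), with dashed lines at 2-fold. Centring moves all 7 genes together, from 0.06 to 1.44 for Cybb and from -1.41 to -0.02 for Rac2 between the housekeeping and the hybridization scaling. Cybb stays to the right of Rac2 in each, which under centring is so by construction.

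Hvcn1 encodes the voltage-gated proton channel, which lets protons follow the electrons and is known from neutrophils and B cells. It measured 5.71 in the MHCII+ and 4.16 in the MerTK- population, a difference of 1.54, and because the MerTK- value lay under the floor the fold in favour of MHCII+ macrophages is at least 2.05. It was the only dim member, 1.48 above the floor on the MHCII+ array. The 5222 negative-control probe sets reached 9.03 and 9.66 at their own 95th percentile, above Hvcn1 on both arrays. The 2-fold call ended after centring on genes above the floor or housekeeping genes, and with the floor at the 99th percentile or at the negative controls.

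Markers of other cells, among them cells that carry the oxidase, moved between the arrays as well. Of 16 neutrophil markers measured, all 16 were higher on the MerTK- array, 12 of the 15 above the floor by 2-fold or more. Their median level was 12.2 on the MHCII+ and 14.1 on the MerTK- array. Differences ran from -3.54 (Ngp, a granule protein) to -0.51 (Padi4, a citrullinating enzyme). Ncf1, Ncf4, Rac1 and Rac2 had the same direction on the deposited scale, while Cybb and Cyba, of the same complex, leaned the other way. The defining marker Ly6g was not analysed here, and Camp was under the floor on both arrays. Natural killer markers, from Gzma (5.20 and 13.0) to Klrb1c (5.11 and 6.44), were also higher on the MerTK- array, for all 7 measured. Of these, Eomes was under the floor on both arrays (3.24 and 4.58). B cells, most of which lack the CD11b of the gate, left little signal. Of 4 B cell markers measured, Cd79a and Pax5 were under the floor on both arrays. Cd79b, of the B cell receptor, had values of 5.53 and 3.33 and was at least 1.82-fold higher on the MHCII+ array, the direction of Hvcn1. Ms4a1 had values of 4.52 and 2.79 and, with the lower one set to the floor, a difference of -0.16, so no fold is given. Dendritic cell markers were higher on the MHCII+ array by 2-fold or more for 3 of the 6 above the floor, where 11.8% of all genes were. These were the chemokine genes Ccl17 (27.3-fold) and Ccl22 (at least 14.02-fold) and the lectin gene Cd209a (at least 15.4-fold). That is the direction of Cybb, Cyba and Hvcn1 on the deposited scale, while Ncf1, Ncf4, Rac1 and Rac2 leaned the other way. Of the other markers above the floor, Ccr7 had values of 8.47 and 8.23 and Dpp4 4.96 and 4.40, under 2-fold. Itgae, with 3.78 and 4.78, was higher on the MerTK- array. The dendritic cell genes Flt3, Zbtb46, Xcr1 and Clec9a were under the floor on both arrays. The eosinophil markers Epx, Prg2 and Il5ra were too, while Siglecf had values of 8.86 and 9.39 and Ccr3 5.42 and 5.58. Of 8 monocyte markers above the floor, 1 was 2-fold apart in each direction, Lgals3 by 1.39 and Itgal by -1.60, and the median difference was -0.34. In all, 3 were higher on the MHCII+ and 5 on the MerTK- array. Ccr2 was among the 3, with values of 16.1 and 15.2, or 1.95-fold, although the paper counts its MHCII+ cluster as lacking CCR2. The study's methods state that the purity of the sorted cells was checked by flow cytometry. The part of these cells in the member differences was not tested. In bulk samples fewer cells of a type and less RNA per cell cannot be told apart.

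Of the other NADPH oxidases and assembly partners, 10 of 13 listed genes were measured, 4 were above the floor and none of these was 2-fold apart. Cybc1, a chaperone needed to make the flavocytochrome, had values of 9.43 and 9.20, and Rap1a, a small GTPase that copurifies with it, 14.04 and 14.13. Rac3 had 5.19 and 4.85, and Noxo1, the organizer of the non-phagocyte oxidase Nox1, 7.01 and 6.67. On both arrays Rac3 and Noxo1 lay under the 95th percentile of the negative controls (9.03 and 9.66). The measured catalytic subunits of the other oxidases were under the floor in both populations, while Duox2 was not analysed here. Their values were 2.78 and 2.32 for Nox1, 1.90 and 1.91 for Nox3, 2.61 and 2.81 for Nox4, and 2.88 and 3.10 for Duox1. So were the activator Noxa1 (2.18 and 2.81) and the maturation factor Duoxa2 (2.85 and 2.71). Among the measured catalytic subunits of the family, Cybb alone was above the floor.

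The genes around the complex went both ways on the deposited scale. Over 7 lists of genes that trigger, drive, feed or counter the oxidase, 66 of 83 genes were measured and 59 were above the floor. Of these 59, 7 leaned by 2-fold or more to MHCII+ macrophages and 6 to MerTK- macrophages, where 11.8% and 6.00% of all genes did, and the median difference was -0.04. The split was 4 and 12 after centring on housekeeping genes, 27 and 0 after centring on the hybridization controls, and 3 and 4 with the floor at the negative controls. Of 12 receptors that can trigger the burst, 11 were less than 2-fold apart. Tnfrsf1a, a receptor for tumour necrosis factor, was 2.41-fold higher in MerTK- macrophages (13.2 and 14.5), while Itgam had values of 17.4 and 16.4. Of 12 kinases and lipid signals, Pik3cd, a catalytic subunit of phosphoinositide 3-kinase, was 2.22-fold higher in MHCII+ macrophages (8.82 and 7.67). Pik3r5, a regulatory subunit of the form driven by G proteins, was 2.59-fold higher in MerTK- macrophages (10.2 and 11.6).

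Of 11 genes that load, unload or hold Rac, 9 were less than 2-fold apart, among them the exchange factors Vav1 (12.7 and 13.2) and Dock2 (13.2 and 13.3). Vav2, another exchange factor, measured 6.37 in the MHCII+ population and fell below the floor in the other (4.63), a fold of at least 3.24, and Bcr, which speeds GTP hydrolysis by Rac, was 2.31-fold higher in MerTK- macrophages (4.42 and 5.63). Among 8 transcription factors above the floor, Cebpb was 2.72-fold and Irf1 2.62-fold higher in the MerTK- population and Cebpa 2.05-fold higher in MHCII+ macrophages, the median being -0.09. None of the 4 NADPH-supplying enzymes above the floor was 2-fold apart, with Pgd of the pentose phosphate pathway at 11.3 and 10.5 and Taldo1 at 10.5 and 11.2.

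Enzymes that remove the products of the oxidase went both ways. Of 7 above the floor, Cat (catalase) was 2.43-fold higher in MHCII+ macrophages (12.6 and 11.3), as was the peroxiredoxin Prdx2 by 2.98-fold (13.1 and 11.5), and none was 2-fold higher in MerTK- macrophages. The superoxide dismutases Sod1 (12.3 and 12.4) and Sod2 (12.3 and 12.9) were less than 2-fold apart, and Sod3 and the neutrophil enzyme Mpo were under the floor. Of 5 ion and pH companions of Hvcn1, 3 were 2-fold apart, where 17.8% of all genes above the floor were. With the floor at the negative controls, 0 of them were 2-fold apart in either direction. The potassium channel gene Kcnn4 was 3.63-fold higher in MHCII+ macrophages (10.6 and 8.76) and the chloride transporter gene Clcn5 2.93-fold higher (8.20 and 6.65). Trpm2, a cation channel opened under oxidative stress, was 2.15-fold higher in MerTK- macrophages (5.59 and 6.69).

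**Figure D4:**
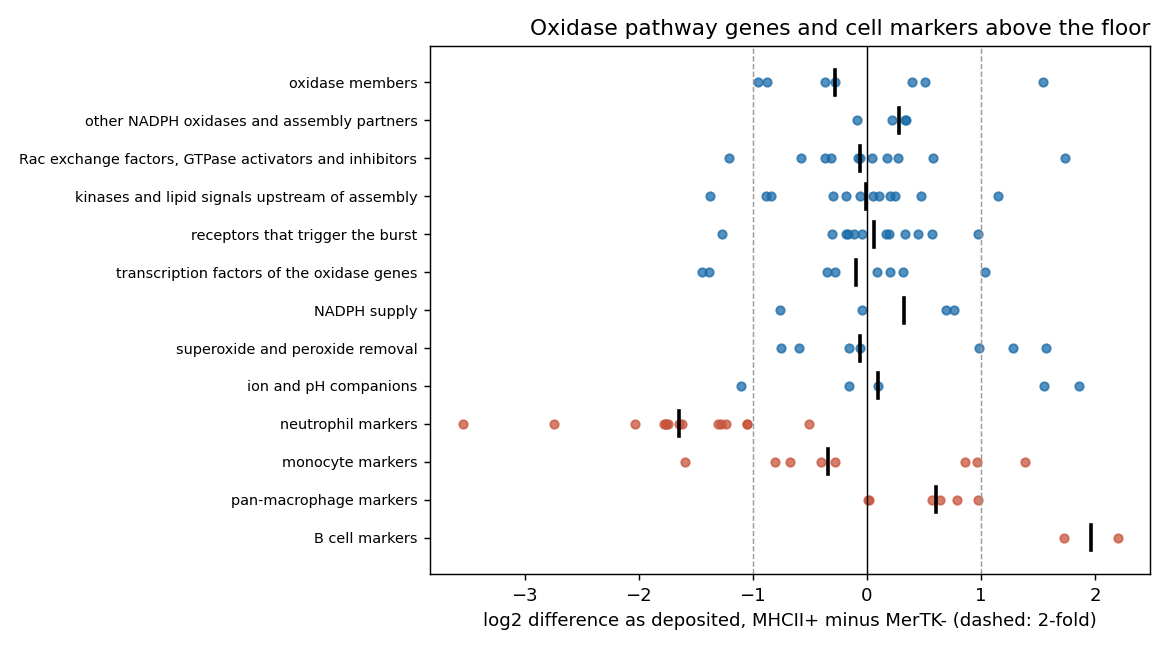
Deposited log2 difference, MHCII+ minus MerTK- (horizontal axis), of each gene above the floor in the oxidase lists (blue) and in marker lists of other cells (red), with each list's median as a black bar and dashed lines at 2-fold. Values under the floor are drawn as deposited. The oxidase lists straddle zero, the 15 neutrophil markers all lie left of it, and the 2 B cell markers lie right of it. Both B cell positions rest on MerTK- values under the floor. With these set to the floor, the differences are 0.86 for Cd79b and -0.16 for Ms4a1.

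The genes nearest to Cybb in level over the 2 arrays, by straight-line distance between the pairs of log2 values, were Rpl41 (0.12), Slc3a2 (0.12) and Ms4a4c (0.14), a likeness that rests on 2 values for each gene. The 3 members Cybb, Ncf1 and Rac1 exceeded 16 on both arrays and Ncf4 on the MerTK- array. A 16-bit scanner records at most 16 on the log2 scale, so these values were changed after the scan. All deposited values ran from 1.009 to 19.8 on the MHCII+ and from 0.89 to 19.4 on the MerTK- array, and whether the scale was shifted or stretched was not tested. A stretch would make every fold given here too large, and with it the counts at 2-fold.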

How the data were processed

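Total RNA of MHCII+ and MerTK- macrophages was hybridized to the mouse Clariom S array, per the study's methods, although the series description names an older array. The authors deposited log2 intensity values made by Robust Multiarray Average (RMA), default settings, with global scaling. Affymetrix Expression Console is named in the submitters' notes. The version, and the time between IR and sorting, are not given in the sources used here. Of 28846 probe sets, 19572 have 1 gene symbol in the platform table and none has several, and 2634 transcript probe sets are unnamed here. Symbols were updated by Entrez ID from the NCBI table of GRCm38.p6, and the probe set with the highest mean was taken for the 55 genes with several, which gave 19505 genes. No scaling was added. Differences, counts and medians were computed with Python 3.11.15, pandas 2.3.3 and numpy 2.4.6, without a test, and the number of arrays limits their precision. The limma test of the study's methods needs a spread between replicates, which 1 array per population does not give. Counting was tested on simulated data. Housekeeping scaling used 11 genes.

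The members and lists were chosen with earlier results of these data known. The text names all members, every measured other oxidase or partner, pathway genes at least 2-fold apart, leading or defining genes of the marker lists it describes, and the 3 genes nearest to Cybb. Other genes with values (H2-Aa, Itgam, Mertk, Spi1, Irf8, Vav1, Dock2, Pgd, Taldo1, Sod1, Sod2, and genes of the B cell, dendritic cell, eosinophil and monocyte lists) were added after their values were seen. The alternatives were other scalings, floors, the mean over probe sets and a fold threshold of 1.5. Of the marker lists not described in the report, resident macrophage genes leaned to MHCII+ macrophages by 2-fold or more for 12 of 13 and class II genes for 7 of 7 above the floor. Cardiomyocyte, fibroblast and endothelial genes leaned so to MerTK- macrophages for 4 of 7, 2 of 4 and 2 of 5. T cell genes were 2-fold apart for 0 of 2.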

Additional observations from a re-analysis of the deposited data

Results flagged for a closer look

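Of the 2634 transcript probe sets that have no gene name here and enter no comparison of the report, 1308 were above the floor (49.7%, against 53.9% of named genes), so a signal lies outside the genes analysed.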

How the results depend on the processing

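With the differences in the order Cybb, Cyba, Ncf1, Ncf4, Rac1, Rac2, Hvcn1, centring on genes above the floor gave 0.36, 0.25, -0.43, -1.02, -0.51, -1.10 and 1.40. Centring on the housekeeping genes (median difference 0.45) gave 0.057, -0.053, -0.73, -1.33, -0.82, -1.41 and 1.09. Centring on the hybridization controls gave 1.44, 1.33, 0.65, 0.058, 0.57, -0.022 and 2.48. Quantile normalization gave 0.31 for Cyba, -0.34 for Ncf1, -0.96 for Ncf4, -0.45 for Rac1, -1.01 for Rac2 and 1.55 for Hvcn1, and Cybb moved by less than 0.01. The median over members was -0.43, -0.73, 0.65 and -0.34 under these settings, and -0.32 with the floor at the negative controls, where Hvcn1 drops out. Under quantile normalization the membrane pair stood 1.06 above the cytosolic and 1.14 above the Rac pair, and shifts of a whole array leave these contrasts as they are by construction. Members at least 2-fold higher in MHCII+ macrophages numbered 0 after centring on genes above the floor or housekeeping genes and with the 99th percentile or negative-control floor, and 3 after centring on the hybridization controls. Members higher in MerTK- macrophages numbered 2 (Ncf4 and Rac2) after centring on genes above the floor or housekeeping genes and at 1.5-fold, and 1 (Rac2) after quantile normalization. Over all genes, counts higher in MHCII+ and in MerTK- macrophages were 495 and 1801 (housekeeping), 5207 and 62 (hybridization controls), 330 and 291 (negative-control floor) and 2547 and 1677 (1.5-fold), and 988 were higher in MerTK- macrophages without a floor. Centring on genes above the floor gave 919 and 890 and quantile normalization 913 and 855, against 1243 and 631 as reported. Pathway genes apart by 2-fold, towards MHCII+ and towards MerTK- macrophages, numbered 4 and 12 after centring on housekeeping genes and 27 and 0 after centring on the hybridization controls, and 3 and 4 with the negative-control floor. Which scaling is nearest to the RNA in the cells was not tested. Taking the mean over probe sets changed no member value, and the dimness of Hvcn1 limits what its difference can show.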
